A study of Mus musculus with 6 samples.

Results

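The NRF2 antioxidant response was followed through 9 genes in group 2 innate lymphoid cells (ILC2s), lung lymphocytes that make type 2 cytokines. The genes are Nfe2l2, which encodes NRF2, its inhibitor gene Keap1, and the antioxidant genes Hmox1, Nqo1, Txnrd1, Gclm, Gclc, Srxn1 and Prdx1. They were taken by symbol from the table of estimated counts, where all 9 are among 18478 listed genes. In the fit over the 14084 genes that passed the filter on low counts, 0 of the 9 passed the test between CB2 KO and WT.

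RNA was sequenced from sorted lung ILC2s of BALB/c mice, 3 libraries labelled WT and 3 labelled CB2 KO, to ask how loss of CB2, the cannabinoid receptor encoded by Cnr2, affects the ILC2 transcriptome. All mice, WT and CB2 KO alike, were 6 weeks old and had been given 3 intranasal injections of 1 µg recombinant IL-33, an epithelial alarmin that activates ILC2s. All cells were then kept in culture with 10 ng/mL each of IL-2 and IL-7 (24 h), so there is no resting group. The labels do not describe the deleted allele, the cells in which it is deleted, or whether replicates came from separate or pooled mice. The p-values therefore measure only the spread between these libraries, which may be technical.

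In resting cells KEAP1, an adaptor of the CUL3 ubiquitin ligase, holds NRF2 in the cytoplasm and marks it for degradation. Oxidants and electrophiles modify cysteines of KEAP1, after which NRF2 accumulates, pairs with small MAF proteins and binds antioxidant response elements near genes of glutathione synthesis, thioredoxin reduction, quinone reduction and haem breakdown. NRF2 is set mainly by protein stability, so the mRNA of Nfe2l2 is not a measure of its activity.

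Library totals ran from 17141698 to 21621008 estimated counts. All 11 ILC2 markers, Gata3 and Il1rl1 among them, had counts in every library. The library labelled CB2 KO replicate 1 was set apart from the rest along principal component 1, which held 47.7% of the variance. Its Cnr2 level was 9.24 CPM (CPM being counts relative to the TMM-scaled library size), next to 9.32 in WT replicate 1, whereas the other WT libraries were at 17.4 and 15.8 and CB2 KO replicates 2 and 3 at 1.60 and 3.84. The differences of the 9 genes are given with and without it, and every direction stated for CB2 KO rests on the labels. Cnr2 itself did not pass in edgeR, with a log2 difference (CB2 KO minus WT) of -1.52 (SE 0.56, adjusted p = 0.514). With the library labelled CB2 KO replicate 1 left out, its difference was -2.42 (adjusted p = 0.486 by edgeR).

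Among the 9 genes, 4 had a positive and 5 a negative log2 difference (CB2 KO minus WT), with a median of -0.08, against -0.00 over all tested genes. The count of 0 of 9 past an adjusted p of 0.05 (edgeR's quasi-likelihood test, Benjamini-Hochberg over all genes) stands beside 0.107% of all tested genes, 0.0426% higher and 0.0639% lower. DESeq2 also gave 0 of 9, where 2.58% of all genes passed, and limma-voom 0 of 9, where 0.107% passed. At an unadjusted p below 0.05 edgeR had 1 of the 9 (Hmox1), with 8.6% of all genes, whereas DESeq2 and limma-voom had 2 each (Hmox1 and Nqo1). The share of all genes at that p was not computed for DESeq2 or limma-voom, so their counts cannot be set against it. The CPM of the groups did not overlap for 3 of the 9, Hmox1 higher and Nqo1 and Srxn1 lower in CB2 KO, against 14.1% of all tested genes, 6.91% higher and 7.2% lower. With the library labelled CB2 KO replicate 1 left out, 1 of the 9 was positive (Hmox1) and 8 negative, the median was -0.07, and 0 passed.

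**Figure D1:**
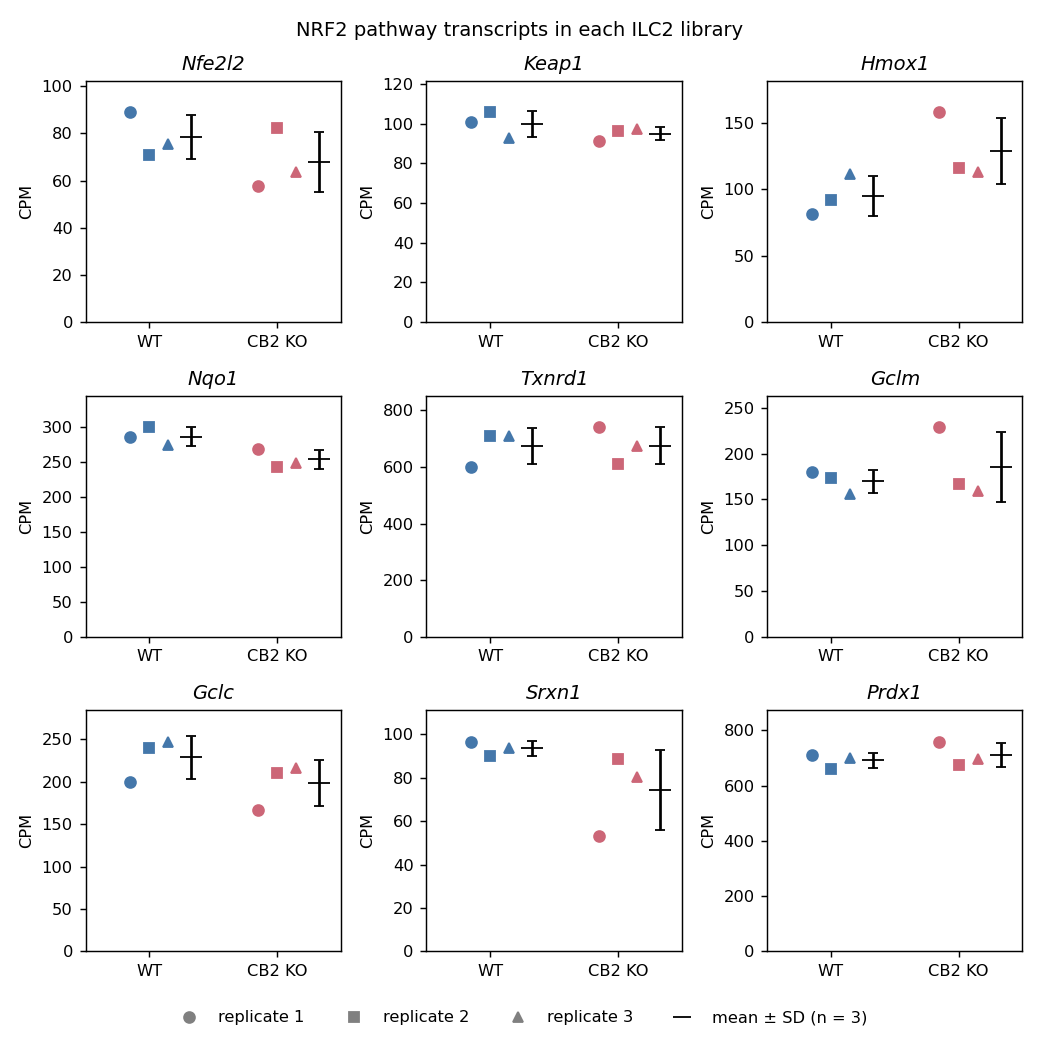
CPM of the 9 genes in each library, WT in blue and CB2 KO in red, with a symbol for each replicate number and the mean ± SD (n = 3) in black. Symbols for the library labelled CB2 KO replicate 1 lie outside the other 5 libraries in 8 of the 9 panels.

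The transcription factor gene Nfe2l2 (ENSMUSG00000015839.6, chromosome 2, 75675513 to 75704641, minus strand, mm10) was at 88.9, 70.9 and 75.4 CPM in WT replicates 1 to 3. In CB2 KO replicates 1 to 3 it was at 57.7, 82.3 and 63.7 CPM. The groups overlapped, since CB2 KO replicate 2 lay above 2 of the WT libraries. The means were 78.4 ± 9.38 and 67.9 ± 12.9 CPM (SD, n = 3 each), a log2 difference of -0.20 (SE 0.18, 95% interval -0.64 to 0.23, adjusted p = 0.821 by edgeR). It was -0.09 (SE 0.18) with the library labelled CB2 KO replicate 1 left out.

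Keap1 (chromosome 9, 21229730 to 21239361, minus strand) was the steadiest of the 9 in CB2 KO, with a coefficient of variation of 3.49%. It was at 101, 106 and 92.9 CPM in WT and 91.1, 96.1 and 97.3 CPM in CB2 KO replicates 1 to 3. The log2 difference was -0.08 (SE 0.12, 95% interval -0.35 to 0.19, adjusted p = 0.904 by edgeR). An antisense gene, Gm16754, overlaps Keap1 over 3317 bases, and whether counting used strand is not stated in these sources. Gm16754 was listed at 2.83 to 5.77 CPM, far below Keap1. The groups of Keap1 overlapped, and the difference was -0.05 (SE 0.13) with the library labelled CB2 KO replicate 1 left out.

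Glutathione synthesis starts with glutamate-cysteine ligase, an enzyme of a catalytic subunit (Gclc) and a modifier subunit (Gclm) that raises its efficiency. Gclc (chromosome 9, 77754535 to 77794485, plus strand) was at 200, 240 and 247 CPM in WT and at 167, 211 and 217 CPM in CB2 KO. The library labelled CB2 KO replicate 1 was the lowest of the 6, and the other CB2 KO libraries lay within the WT range. The log2 difference of Gclc was -0.21 (SE 0.13, 95% interval -0.52 to 0.10, adjusted p = 0.72 by edgeR), and -0.10 after leaving out the library labelled CB2 KO replicate 1.

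Gclm (chromosome 3, 122245557 to 122270732, plus strand) was at 180, 173 and 156 CPM in WT and at 229, 167 and 160 CPM in CB2 KO. Here the library labelled CB2 KO replicate 1 was the highest library, opposite to Gclc. The log2 difference of Gclm was 0.13 (SE 0.15, 95% interval -0.24 to 0.49, adjusted p = 0.876 by edgeR). It turned to -0.06 without that library. The ratio of Gclc to Gclm in CPM per kilobase of exon was 1.86, 2.31 and 2.65 in WT and 1.22, 2.10 and 2.27 in CB2 KO replicates 1 to 3, lowest in the library labelled CB2 KO replicate 1.

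Counts of Gclm are less certain than those of the other genes. Its annotated transcripts share 244 bases at 100% identity with the pseudogenes Gm10123 and Gm6061, the latter lying inside the gene, and 287 bases at 97.9% with the cyclophilin gene Ppia. Gm10123 and Ppia were abundant, at 2350 to 2694 and 1407 to 1582 CPM, so reads from this stretch could have been divided between them. Both were lower in every CB2 KO library than in any WT library, and neither passed the test. How much of the level of Gclm came from shared reads was not tested.

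Thioredoxin reductase 1, encoded by Txnrd1 (chromosome 10, 82833951 to 82897712, plus strand), uses NADPH to regenerate thioredoxin, which in turn reduces peroxiredoxins. Txnrd1 was at 600, 710 and 709 CPM in WT and at 741, 610 and 675 CPM in CB2 KO. The groups covered nearly the same range, with means of 673 ± 63.3 and 675 ± 65.6 CPM (SD, n = 3 each). The log2 difference was 0.01 (SE 0.10, adjusted p = 0.993 by edgeR). Its 95% interval of -0.22 to 0.23 spans fold changes from 0.857 to 1.18. The sign turned to -0.08 when WT replicate 1 was left out and to -0.07 when the library labelled CB2 KO replicate 1 was.

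Prdx1 encodes peroxiredoxin 1, an abundant cytosolic enzyme that removes hydrogen peroxide. It lies on chromosome 4 (116685544 to 116700822, plus strand), 19.2 Mb from Cnr2, the targeted gene. Prdx1 was at 712, 661 and 701 CPM in WT and at 759, 675 and 698 CPM in CB2 KO. The log2 difference was 0.04 (SE 0.06, 95% interval -0.11 to 0.19, adjusted p = 0.908 by edgeR), the narrowest interval of the 9. After leaving out the library labelled CB2 KO replicate 1 it was -0.01.

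Processed copies of Prdx1 could take some of its reads. Gm21399 is 98.3% identical over 597 bases and was at 143 to 169 CPM in WT and 150 to 164 CPM in CB2 KO, while Gm7204, 97.5% identical over 597 bases, was at 48.9 to 55.7 and 49.4 to 59.8 CPM. Prdx1 summed with both copies gave 901 ± 43.4 (WT) and 921 ± 55.9 (CB2 KO) CPM (SD, n = 3 each), and the groups overlapped with the copies as they did without.

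Sulfiredoxin, encoded by Srxn1 (chromosome 2, 152105516 to 152111376, plus strand), repairs peroxiredoxins whose active cysteine has been overoxidized. Srxn1 was tightly grouped in WT, at 96.6, 90.0 and 93.9 CPM. In CB2 KO it was at 53.4, 88.6 and 80.5 CPM, each below every WT library, although replicate 2 was within 2 CPM of the lowest. The log2 difference of Srxn1 was -0.34 (SE 0.19, 95% interval -0.79 to 0.12, adjusted p = 0.682 by edgeR). The library labelled CB2 KO replicate 1 was the lowest of the 6, and the difference was -0.14 without it.

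NQO1, encoded by Nqo1 (chromosome 8, 107388225 to 107403206, minus strand), reduces quinones in a single step that avoids reactive semiquinones. Nqo1 was at 285, 300 and 274 CPM in WT and at 269, 243 and 248 CPM in CB2 KO. All CB2 KO libraries lay below all WT libraries, and here the library labelled CB2 KO replicate 1 was the CB2 KO library nearest to WT. The means were 286 ± 13.0 and 253 ± 13.6 CPM (SD, n = 3 each), a log2 difference of -0.18 (SE 0.08, 95% interval -0.36 to 0.01). It did not pass (adjusted p = 0.602 by edgeR, and 0.323 to 0.761 over the alternatives). After leaving out the library labelled CB2 KO replicate 1 the difference was -0.22 (adjusted p = 0.578 by edgeR).

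Haem oxygenase 1, encoded by Hmox1 (chromosome 8, 75093621 to 75100589, plus strand), breaks haem into biliverdin, iron and carbon monoxide, and is repressed by BACH1 as well as activated by NRF2. Hmox1 was at 81.4, 91.6 and 111 CPM in WT and at 158, 116 and 113 CPM in CB2 KO. The CB2 KO libraries were all above the WT libraries, but CB2 KO replicate 3 exceeded WT replicate 3 by less than 2 CPM. The means were 94.7 ± 15.2 and 129 ± 24.9 CPM (SD, n = 3 each), a log2 difference of 0.46 (SE 0.18, 95% interval 0.03 to 0.89). This was the widest shift of the 9 and did not pass over all genes (adjusted p = 0.562 by edgeR, and 0.207 to 0.769 over the alternatives). After leaving out the library labelled CB2 KO replicate 1 it was 0.29 (SE 0.16, adjusted p = 0.719 by edgeR).

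Macrophages are a strong source of Hmox1, and the summed levels of some markers of other cells did not overlap between the groups. Of 10 macrophage and monocyte markers 6 were in the table, and their summed level was 14.4, 18.0 and 59.2 CPM in WT and 163, 150 and 169 CPM in CB2 KO. In CB2 KO most of that sum was Chil3 (0.56, 8.68 and 47.5 against 143, 108 and 135 CPM) and Lyz2 (1.12, 1.27 and 2.55 against 10.4, 20.2 and 21.2 CPM). Csf1r, which defines the lineage, was at 0, 1.46 and 0 CPM in WT and at 0, 5.47 and 6.45 CPM in CB2 KO. Cd68 overlapped between the groups, at 10.4, 6.58 and 9.11 CPM in WT and at 9.59, 12.7 and 6.57 CPM in CB2 KO. Mrc1 had 88 counts in CB2 KO replicate 2 and 0 in the other 5 libraries, and Cd14 had 50 counts in WT replicate 1 and 0 in the other 5. The 8 mast cell and basophil markers summed to 25.9 to 49.4 CPM in WT and 54.1 to 117 CPM in CB2 KO. The 4 T cell markers in the table summed to 11.2 to 17.5 and 28.0 to 32.4 CPM. Most of that sum was Cd3g, at 9.60 to 17.2 CPM in WT and 23.9 to 28.9 CPM in CB2 KO. The other T cell markers, Cd3e, Cd3d and Trac, overlapped between the groups. Of the 13 markers tested in these 3 lists, 0 passed in edgeR and 6 had an unadjusted p below 0.05, where 8.6% of all tested genes did. For the same 13, limma-voom called 0, where it called 0.107% of all genes. DESeq2 called 2 (Lyz2 and the mast cell tryptase gene Tpsb2), where it called 2.58%. The part of cells with these markers in the level of Hmox1 was not tested. In bulk libraries, fewer cells of a type and less RNA per cell cannot be told apart.

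**Figure D2:**
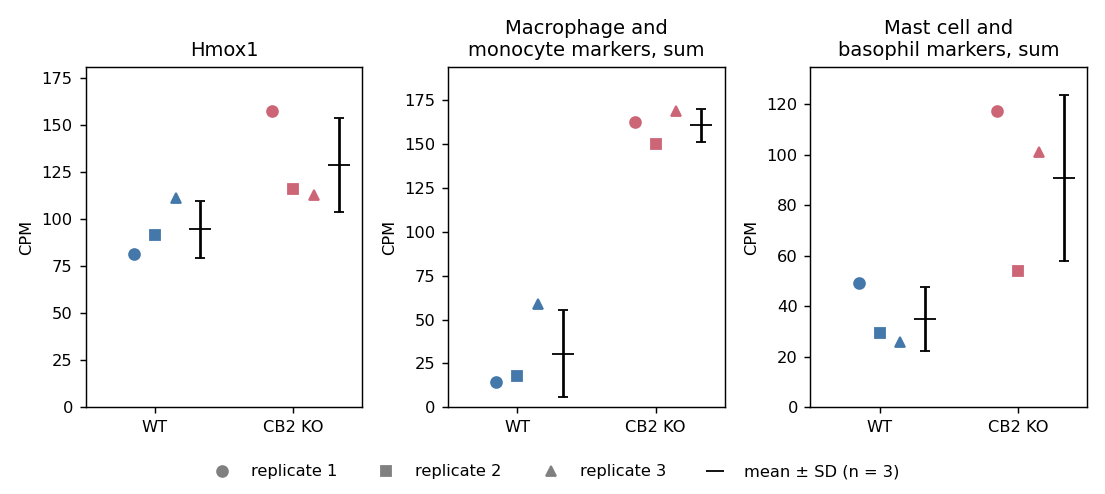
CPM of Hmox1 and summed CPM of the macrophage and monocyte and of the mast cell and basophil markers, by library (symbols) with mean ± SD (n = 3). Hmox1 was highest in the library labelled CB2 KO replicate 1, while the macrophage sum was 150 to 169 CPM in all 3 CB2 KO libraries.

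The genes did not move as a block within the library that stood apart. The library labelled CB2 KO replicate 1 was above all other 5 libraries for 4 genes (Hmox1, Gclm, Txnrd1 and Prdx1) and below them for 4 (Srxn1, Gclc, Nfe2l2 and Keap1). It was thus outside the range of the others for 8 of the 9, against 47.4% of all tested genes. Relative to the mean log2 CPM of the other 5, it was 0.63 higher for Hmox1 and 0.46 higher for Gclm, but fell by 0.75 for Srxn1 and by 0.41 for Gclc.

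**Figure D3:**
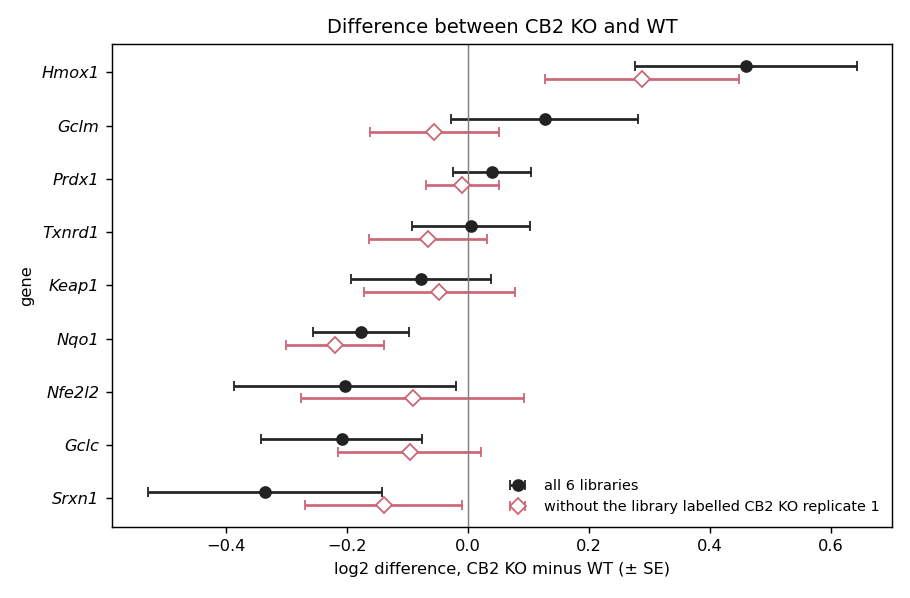
Log2 difference between CB2 KO and WT for each gene with its SE, from all 6 libraries (filled circles) and after leaving out the library labelled CB2 KO replicate 1 (open diamonds). The values run from -0.34 (Srxn1) to 0.46 (Hmox1) with all libraries and from -0.22 (Nqo1) to 0.29 (Hmox1) without that one.

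In the group means over exon length, every enzyme gene stood above both regulators, Keap1 and Nfe2l2. In CPM per kilobase of exon, Prdx1 was highest in WT at 227 ± 8.82, followed by Nqo1 at 184 ± 8.35 and Txnrd1 at 94.98 ± 8.93 (SD, n = 3 each). The means of Gclc (60.8 ± 6.74) and Hmox1 (54.1 ± 8.66) did not differ beyond their spread in WT, although Gclc was above Hmox1 in each WT library. Keap1 (21.3 ± 1.36) and Nfe2l2 (20.6 ± 2.47) did not differ beyond their spread either. Srxn1 was at 33.1 ± 1.18 and Gclm at 27.0 ± 1.96. In CB2 KO the places of Gclc (52.6 ± 7.20) and Hmox1 (73.6 ± 14.2) were exchanged, and Hmox1 was above Gclc in each CB2 KO library. The means of Srxn1 (26.3 ± 6.54) and Gclm (29.5 ± 6.05) were exchanged too, through the library labelled CB2 KO replicate 1 alone (18.9 against 36.4). In CB2 KO replicates 2 and 3 Srxn1 stood above Gclm (31.4 against 26.6 and 28.5 against 25.4), as in WT. Order among close genes also hangs on the length used, since with the longest coding transcript Txnrd1 was at 186 and Nqo1 at 184 per kilobase in WT, and Nfe2l2 (31.7) stood above Gclm (30.4).

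**Figure D4:**
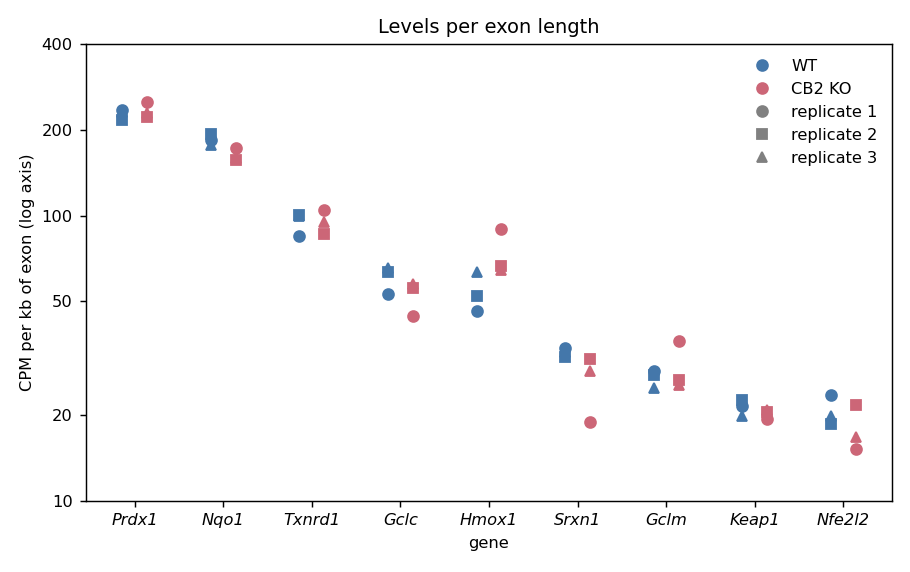
CPM per kilobase of exon on a log axis for each gene and library, ordered by the WT mean, WT in blue and CB2 KO in red. Levels span from 15.2 (Nfe2l2) to 249 (Prdx1), both in the library labelled CB2 KO replicate 1.

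Antioxidant response elements were looked for just upstream of the genes, to set a shared sequence beside differences of unlike sign. The 250 bases before each RefSeq start (GRCm38.p6) were searched on both strands for TGACNNNGC and TGAGNNNGC, forms of the element that NRF2 and small MAF proteins bind. Windows were matched for 7 of the 9 genes, not for Hmox1 and Gclc, and 5 of the 7 held a match (Nfe2l2, Srxn1, Gclm, Prdx1 and 1 of 3 starts of Txnrd1). Of all 32851 windows, 10.2% held TGACNNNGC, 14.4% TGAGNNNGC and 23% either. A match is a description of letters and not a shown binding site. Srxn1, Gclm and Prdx1 are printed because each has 1 listed start and their log2 differences were -0.34, 0.13 and 0.04. The bases shown run up to the first annotated start, 5′ to 3′ on the plus strand, with matches in capitals. They are chr2:152105274-152105515 for Srxn1, chr3:122245307-122245556 for Gclm and chr4:116685349-116685543 for Prdx1.
Srxn1: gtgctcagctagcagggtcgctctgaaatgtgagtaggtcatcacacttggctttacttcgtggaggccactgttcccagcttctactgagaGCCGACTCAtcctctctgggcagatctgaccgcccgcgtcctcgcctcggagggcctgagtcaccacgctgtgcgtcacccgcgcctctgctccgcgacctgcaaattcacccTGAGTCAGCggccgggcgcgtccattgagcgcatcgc
Gclm: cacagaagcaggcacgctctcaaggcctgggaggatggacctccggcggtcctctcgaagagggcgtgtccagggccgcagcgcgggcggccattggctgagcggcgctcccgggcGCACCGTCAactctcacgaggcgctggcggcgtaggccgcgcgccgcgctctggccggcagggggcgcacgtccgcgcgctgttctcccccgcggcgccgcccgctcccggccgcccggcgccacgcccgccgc
Prdx1: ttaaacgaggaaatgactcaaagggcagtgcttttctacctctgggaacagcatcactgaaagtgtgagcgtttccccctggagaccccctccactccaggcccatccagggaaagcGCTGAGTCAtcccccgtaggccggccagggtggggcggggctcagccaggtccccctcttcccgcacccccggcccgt
Srxn1 held 2 matches, TGAGTCGGC on the minus strand and TGAGTCAGC on the plus strand, with their nearest bases 142 and 29 bases before the first annotated start. The matches of Gclm and Prdx1 were on the minus strand, TGACGGTGC at 126 bases and TGACTCAGC at 70 bases before that start. Genes with a match thus included Prdx1, whose groups overlapped, and Srxn1, whose groups did not. Keap1 and Nqo1 held no match in this window.

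Beyond the 9 genes, 76 further redox genes in 7 lists gave 70 tested genes, of which 0 were higher and 0 lower past the threshold in edgeR. Of the 70, 6 had an unadjusted p below 0.05, where 8.6% of all tested genes did. The CPM of the groups did not overlap for 9 of the 70, against 14.1% of all tested genes. DESeq2 called 4 (Sqstm1, Mgst1, Slc48a1 and Gsta4), where it called 2.58% of all genes. Their median log2 difference was 0.01, also with genes at 0 in a group set to their bound, against -0.00 over all genes. With the library labelled CB2 KO replicate 1 left out the median was 0.06, against 0.00.

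Of 12 tested regulators and partners of NRF2, 9 were positive and 3 negative (median 0.14). Sqstm1 encodes p62, an autophagy receptor that binds KEAP1 and is itself an NRF2 target. It was at 441, 460 and 490 CPM in WT and at 760, 789 and 661 CPM in CB2 KO, with no overlap. Its log2 difference of 0.67 (SE 0.08) missed the threshold in edgeR (adjusted p = 0.0579). The alternatives gave 3.09e-13 (DESeq2) to 0.402 (edgeR without WT replicate 1), and it passed with limma on the authors' normalized signal (adjusted p = 0.0452). With the library labelled CB2 KO replicate 1 left out the difference was 0.65. The small MAF gene Mafk was at 40.8 ± 2.11 and 49.8 ± 4.47 CPM (SD, n = 3 each, adjusted p = 0.692 by edgeR).

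Of 21 tested genes of glutathione synthesis and use, 9 were positive and 12 negative (median -0.03, and 0.06 after leaving out the library labelled CB2 KO replicate 1). The glutathione S-transferase gene Gsta4 was low in WT, at 2.75, 2.24 and 3.11 CPM (160 counts in all), and had 0 counts in every CB2 KO library. Against a floor of 3 counts over the group, its pooled counts were at least 51.5-fold lower in CB2 KO, or 33.9-fold over CB2 KO replicates 2 and 3. Such bounds cover counting error and not the spread between libraries. The 95% interval of its log2 difference was -12.4 to -5.05 (adjusted p = 0.218 by edgeR, 4.44e-06 by DESeq2). Mgst1, a microsomal glutathione transferase gene, showed the reverse, with 0 counts in WT and 6.21, 1.09 and 1.98 CPM (182 counts in all) in CB2 KO. Of these counts 125 came from the library labelled CB2 KO replicate 1. Against the same floor the pooled counts of Mgst1 were at least 62.9-fold higher in CB2 KO, and at least 29.9-fold over CB2 KO replicates 2 and 3. The 95% interval of its log2 difference, which takes in the spread between libraries, was 2.19 to 15.7 (adjusted p = 0.469 by edgeR, 4.44e-05 by DESeq2). The summed macrophage and mast cell markers were also higher in the CB2 KO libraries, as given above, although single markers such as Cd68 and Cpa3 overlapped. The part of such cells in the level of Mgst1 was not tested.

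The thioredoxin and peroxiredoxin list had 4 positive and 7 negative genes of 11 (median -0.02), with the mitochondrial peroxiredoxin gene Prdx3 at 107 ± 21.5 and 136 ± 19.4 CPM and the mitochondrial reductase gene Txnrd2 at 29.9 ± 9.23 and 20.8 ± 3.56 CPM (SD, n = 3 each). NADPH supply had 1 positive and 5 negative of 6 (median -0.05). The positive one was Me1, malic enzyme 1, at 16.9 ± 1.92 against 23.2 ± 1.97 CPM without overlap, while the pentose phosphate gene Taldo1 was at 268 ± 12.1 and 251 ± 19.5 CPM (SD, n = 3 each). Haem and iron genes had 5 positive and 3 negative of 8 (median 0.07). With the library labelled CB2 KO replicate 1 left out these medians were -0.03, -0.10 and 0.07, and the log2 differences of Me1 and Txnrd2 were 0.51 and -0.62.

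The haem transporter gene Slc48a1 was at 182, 196 and 179 CPM in WT and at 262, 227 and 216 CPM in CB2 KO, each above every WT library. Like Hmox1 it acts in haem handling, and its log2 difference of 0.34 (SE 0.10) did not pass in edgeR (adjusted p = 0.446) but did in DESeq2 (adjusted p = 0.0311). It was 0.26 with the library labelled CB2 KO replicate 1 left out. Fth1, the ferritin heavy chain gene, was at 2052 ± 62.7 and 2219 ± 135 CPM (SD, n = 3 each). Superoxide and peroxide removal had 2 positive and 1 negative of 3 (median 0.10, and 0.02 after leaving out that library), with Sod2 at 94.3 ± 6.96 and 108 ± 12.8 CPM and the catalase gene Cat at 106 ± 22.4 and 114 ± 12.1 CPM (SD, n = 3 each).

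Further NRF2 targets had 7 positive and 2 negative of 9, with a median of 0.44 that was 0.57 after leaving out the library labelled CB2 KO replicate 1. Over all tested genes the median was -0.00, and 0.00 without that library. Groups did not overlap for 1 of the 9 (Cbr1), against 14.1% of all tested genes. Of the positive genes, Ephx1 (0.13, SE 1.23), Cbr3 (0.84, SE 1.18) and Akr1b8 (1.08, SE 1.00) were low and uncertain. Akr1b8 turned to -0.40 without that library. The carbonyl reductase gene Cbr1 was at 16.8, 19.0 and 14.3 CPM in WT and at 34.7, 24.2 and 26.2 CPM in CB2 KO, with no overlap (log2 difference 0.76, SE 0.27, adjusted p = 0.486 by edgeR), and the difference was 0.58 with that library left out. Abcc1, which exports glutathione conjugates, was at 93.5 ± 16.4 and 135 ± 26.2 CPM (SD, n = 3 each, adjusted p = 0.484 by edgeR), and its groups overlapped.

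**Figure D5:**
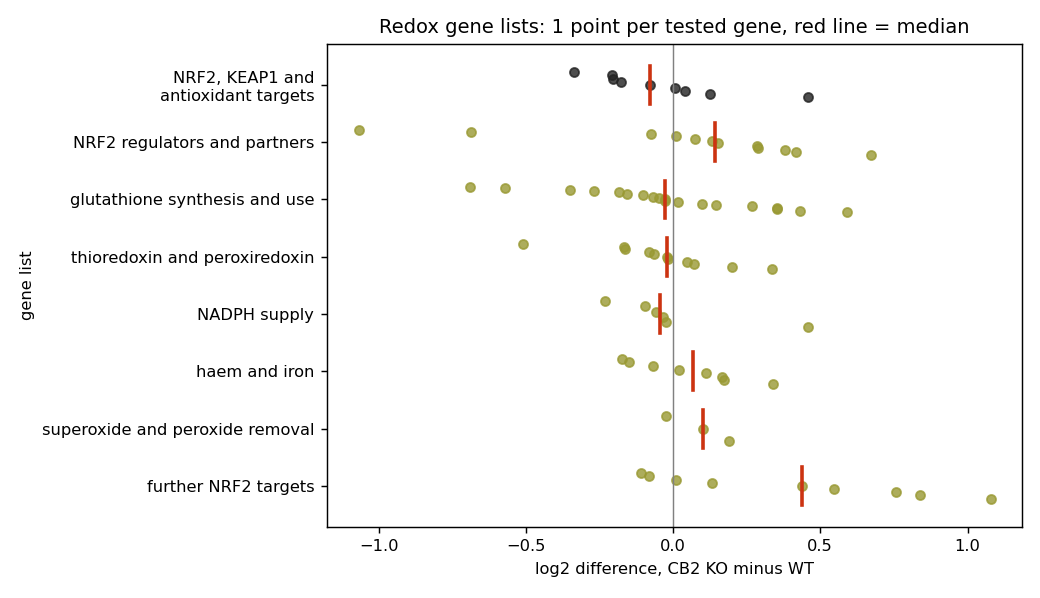
Log2 difference between CB2 KO and WT for every tested gene of each list, with the list's median as a red line. Gsta4 and Mgst1, at 0 counts in 1 group, are not drawn, and the top row holds Nfe2l2, Keap1 and their 7 targets with a median of -0.08.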

How the data were processed

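RNA from 6 ILC2 libraries was measured by sequencing, starting from 10 ng of RNA. Groups and replicate numbers come from the titles, and columns were matched to titles by sample number. The authors deposited an estimated count per gene, assigned by Partek's E/M option as the deposited table is named. Tools and build listed by the submitters' processing notes are CASAVA 1.8.2, STAR (given as 3.5.3), Partek and mm10. Aligner settings and strand are not given there. The authors also deposited a normalized signal, whose values equal, gene by gene, 1 added to the count and scaled by 1 factor for each library. Gene positions are those of GENCODE M21, which 17816 of 17980 genes matched by symbol share (deposited stops lie 1 above its ends).

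Estimated counts were rounded and fitted with edgeR 4.0.16 in R 4.3.3 (TMM, filterByExpr, then glmQLFTest after glmQLFit set to robust=TRUE, legacy=FALSE). P-values were adjusted by Benjamini-Hochberg over 14084 genes, with a threshold of 0.05. SE is the log2 difference divided by the root of F, and intervals use the fit's degrees of freedom. Alternatives were other factors, no or a stricter filter (mean CPM of at least 1), legacy=TRUE, DESeq2 1.42.0, limma-voom and limma 3.58.1 on log2 of the signal with pseudocount 1, the replicate number as a block, and leaving out each library. The workflow was tested on simulated data. A permutation test of 3 against 3 cannot go below an exact two-sided p of 0.1 and was not used. Levels per kilobase divide CPM by the union of exons. At these depths 3 counts correspond to 0.139 to 0.175 CPM, a limit that covers counting error only.

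The members and lists were chosen with earlier results of these data known. Named are the 9 genes, Cnr2, the 2 genes of smallest p in each list, and genes within 500 kb of Prdx1 as counts. Txnrd3 and the marker genes printed singly were chosen after their values were seen. Other marker lists (summed CPM, WT then CB2 KO) were dendritic cell 43.9 to 85.3 and 37.1 to 49.4, B cell 10.9 to 17.3 and 12.8 to 14.9, erythroid 10.2 to 14.95 and 9.91 to 15.6, epithelium 31.0 to 131 and 23.1 to 41.1, and endothelium and fibroblast 19.8 to 27.5 and 7.75 to 26.0. The neutrophil sum was at most 0.37 and 1.32, and the ILC2 sum was 10652 to 11633 and 11253 to 13543. Most of the ILC2 sum was Il5, at 6972 to 7871 CPM in WT and 7888 to 10015 CPM in CB2 KO. Gata3, Icos, Il7r, Thy1 and Klrg1 were lower in every CB2 KO library than in any WT library, and the other ILC2 markers overlapped. Of the 11, 0 passed in edgeR and 4 had an unadjusted p below 0.05, where 8.6% of all tested genes did. DESeq2 called 2 (Icos and Il5), where it called 2.58%.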

Additional observations from a re-analysis of the deposited data

How the results depend on the processing

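The count of 0 of 9 genes past the threshold was the same under all 16 alternatives run. Of 144 refitted log2 differences of the 9 genes, 0 passed, 139 kept their sign and 5 changed it. The 5 were Txnrd1 without WT replicate 1 (-0.076), without CB2 KO replicate 1 (-0.066) and with limma on the authors' normalized signal (-0.0099), and Gclm (-0.055) and Prdx1 (-0.0093) without CB2 KO replicate 1; the cause was not tested. Leaving out 1 library gave -0.076 to 0.075 for Txnrd1, -0.055 to 0.21 for Gclm and -0.0093 to 0.077 for Prdx1. Of the 70 further redox genes, DESeq2 called 4 and limma on the normalized signal 1 (Sqstm1), against 0. Over all tested genes 15 passed, 363 with DESeq2, 23 with limma on the normalized signal and 3 with the replicate block; leaving out 1 library gave 3 to 8, with fewer samples. Same-numbered libraries of the groups deviated together only weakly (correlations of 0.0166, 0.0114 and 0.0129 over 9241 genes), so the numbers were not taken as pairs, although each library correlated best with its own number. With the block 0 of the 9 genes and 0 of the 70 passed. Per kilobase of the longest coding transcript, WT means were 301 for Prdx1, 186 for Txnrd1, 31.7 for Nfe2l2, 30.4 for Gclm and 27.6 for Keap1, an alternative chosen after seeing the data, as were those for the redox lists. Each of the 9 genes had at least 1074 counts in every library, and the low number of libraries, 3 a group, limits the precision.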

Other observations

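Srxn1, whose product repairs peroxiredoxins, and Prdx1 kept a steady ratio in WT. In CPM per kilobase of exon Srxn1 over Prdx1 was 0.147, 0.147 and 0.145 in WT replicates 1 to 3. In CB2 KO replicates 1 to 3 the ratio was 0.0758, 0.142 and 0.124, so all 3 lay below WT, as they did for Srxn1 alone. Txnrd1 over Prdx1 overlapped between the groups, at 0.362, 0.462 and 0.434 in WT and 0.419, 0.388 and 0.416 in CB2 KO. The ratio of Keap1 to Nfe2l2 on the same scale overlapped between the groups, at 0.917, 1.21 and 0.997 in WT and 1.28, 0.944 and 1.24 in CB2 KO.

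Prdx1 shares chromosome 4 with Cnr2 and with 7 of the 15 genes past the threshold in edgeR, out of 874 tested genes on that chromosome and 14084 in all. Of 23 tested genes that start within 500 kb of Prdx1, 0 passed (lowest adjusted p = 0.461 by edgeR, Tmem69), and 1 had an unadjusted p below 0.05, where 8.6% of all tested genes did. In the same window DESeq2 called 0 and limma-voom 0.

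Txnrd3, a thioredoxin reductase gene best known from testis, did not pass the filter on low counts. It had 0, 1 and 0 counts in WT and 111, 0 and 171 counts in CB2 KO replicates 1 to 3, so it was present in 2 of the 3 CB2 KO libraries. Gsta4, at 0 in CB2 KO, lies 388 kb from Gclc on chromosome 9.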
